A study of Mus musculus with 6 samples.

Results

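The Dlx genes are a family of homeobox transcription factor genes named after Distal-less of the fruit fly. All 6 listed members, Dlx1, Dlx2, Dlx3, Dlx4, Dlx5 and Dlx6, were measured in nasal epithelium of mice at birth, among 19937 genes in all. They were found by gene symbol: each row of the expression table with exactly 1 annotated symbol was used, and each of the 6 genes had 1 such probe set and none shared with another gene, so no member was lost. The family was chosen by the measured values of Dlx5, which were higher in the Atf5 knockout. The values of Dlx5 in that comparison are therefore given as a description with no test, and the other 5 members came in by name.

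RNA came from septa and turbinates of the nose on the day of birth (P0), from Atf5-/- pups and, as controls, from Atf5+/+ pups of the same heterozygous intercross, all of strain C57BL6. Each genotype had 3 samples, and a sample pooled 3 pups from different litters, so differences between single pups are reduced but not removed. There was 1 whole-transcript array a sample, and all levels below are log2 expression levels as deposited. The protein made from Atf5 belongs to the ATF/CREB transcription factors. The labels do not state which part of it was removed, and they give the genotype for the pup, not for a tissue. Atf5 had levels of 9.43, 9.44 and 9.50 in Atf5-/- arrays, against 10.54, 10.96 and 10.63 in Atf5+/+ arrays, and was 2.38-fold lower (95% interval 2.03 to 2.80). The arrays had medians of 8.67 to 8.72 over all rows, and 745 genes passed the test of the knockout against the wild type (limma, adjusted p under 0.05), 100 higher and 645 lower. Leaving out replicate 1 gave 455 genes when it was the knockout array and 410 when it was the wild-type array. The replicate number as a block gave 1310. Pairing by that number was inferred from these data and is not stated in the labels. Omp, the marker protein gene of mature olfactory neurons, averaged 9.11 ± 0.08 in Atf5-/- arrays and 11.34 ± 0.32 in Atf5+/+ arrays (SD, n = 3 each), so the labelled tissue carried its defining transcript. Septa and turbinates also hold bone and cartilage, and in such bulk tissue fewer cells of a type and less RNA per cell cannot be told apart.

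Dlx genes lie in the mouse genome as 3 pairs, Dlx1 with Dlx2 on chromosome 2, Dlx3 with Dlx4 on chromosome 11 and Dlx5 with Dlx6 on chromosome 6, and the genes of a pair face each other and share enhancers. Their proteins bind DNA through the homeodomain. In the nose, Dlx5 is known from the olfactory placode, and mice without it have a small olfactory epithelium whose axons fail to reach the olfactory bulb. Dlx5 and Dlx6 also act in bone, Dlx3 in teeth, hair and skin, and Dlx1 and Dlx2 in the GABA neurons of the forebrain.

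The promoters of Dlx1 and Dlx2 are shown because the table of promoters used here holds these 2 members, which are neighbours on chromosome 2. Each stretch of 300 bases spans the annotated start, lying mostly before it, is written 5′ to 3′ on the gene's strand, and comes from RefSeq (build GRCm38.p6). They matched by symbol; Dlx3, Dlx4, Dlx5 and Dlx6 are named only. The capitals mark TGACG, the core of the cyclic AMP response element to which ATF/CREB factors bind.
Dlx1, chr2:71529195-71529494, plus strand: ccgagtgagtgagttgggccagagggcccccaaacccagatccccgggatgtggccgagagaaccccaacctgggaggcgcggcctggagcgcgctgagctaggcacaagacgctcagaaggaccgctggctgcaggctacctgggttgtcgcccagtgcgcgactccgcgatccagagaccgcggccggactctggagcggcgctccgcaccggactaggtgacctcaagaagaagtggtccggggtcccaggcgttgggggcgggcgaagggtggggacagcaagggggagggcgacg
Dlx2, chr2:71546705-71547004, minus strand: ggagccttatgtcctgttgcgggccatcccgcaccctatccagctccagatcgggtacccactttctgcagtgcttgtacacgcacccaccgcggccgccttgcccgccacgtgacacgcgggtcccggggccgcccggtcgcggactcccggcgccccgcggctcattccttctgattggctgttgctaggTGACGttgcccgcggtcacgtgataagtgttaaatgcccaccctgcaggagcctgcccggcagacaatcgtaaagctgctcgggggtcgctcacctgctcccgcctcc
Both are rich in G and C, at 69.3% for Dlx1 and 66.3% for Dlx2, with 27 CpG pairs in that of Dlx1 and 29 in that of Dlx2. On either strand, TGACG was found once in the Dlx2 stretch, from base 193, and not in that of Dlx1. It is held by 20.8% of the 32851 promoter stretches of this length, coding and noncoding genes together. Among the 21263 of protein-coding genes the share is 23.6%. The full element TGACGTCA, which contains that core (1.79% of promoters), the C/EBP-ATF element TGATGNAA (3.97%) and the homeodomain core TAATTA (5.29%) had no match in these letters. A match is a description of the letters, not a bound site.

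Dlx5 and Dlx6 were the members whose mean level was higher in the knockout. Dlx5 had levels of 11.04, 10.98 and 10.88 in Atf5-/- arrays, against 10.67, 10.56 and 10.68 in Atf5+/+ arrays. Every knockout array lay above every wild-type array. The mean was 10.97 ± 0.08 in the knockout and 10.63 ± 0.07 in the wild type (SD, n = 3 each), a log2 difference of 0.33 (SE 0.07), or 1.26-fold. Among array pairs with the same replicate number, Dlx5 was higher in the knockout by 0.38, 0.42 and 0.20 for numbers 1, 2 and 3. A log2 change at least as high as that of Dlx5 was measured for 257 of the 19937 genes (1.29%), and with 1 array left out its own value ranged between 0.29 and 0.38.

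Dlx6, its partner on chromosome 6, had levels of 9.79, 9.64 and 9.58 in Atf5-/- arrays, against 9.71, 9.53 and 9.44 in Atf5+/+ arrays. The groups overlapped, and replicate 1 was the highest and replicate 3 the lowest in both genotypes. The means were 9.67 ± 0.11 in the knockout and 9.56 ± 0.14 in the wild type (SD, n = 3 each), a log2 difference of 0.11 (SE 0.09, 95% interval -0.09 to 0.30) that did not pass (limma, adjusted p = 0.612). Between arrays with the same number, Dlx6 was higher in the knockout by 0.07, 0.12 and 0.14, and with the replicate number as a block in the model it did not pass either (adjusted p = 0.338). The upper end of that interval is close to the 0.33 of Dlx5, and a difference between the 2 partners was not tested.

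**Figure D1:**
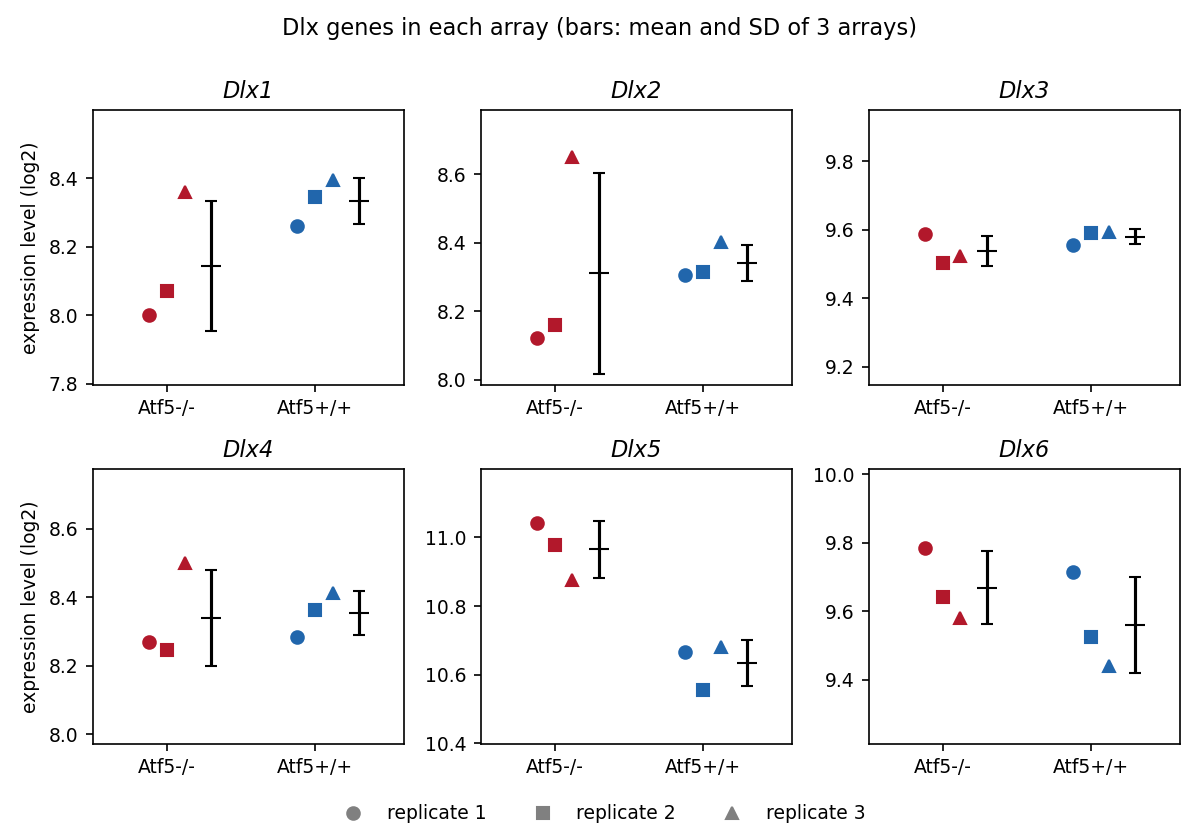
Log2 expression level of each Dlx gene in the 3 Atf5-/- arrays (red, left) and the 3 Atf5+/+ arrays (blue, right); marker shapes give the replicate number and black bars the mean and SD, on vertical axes of equal span but different position. The Dlx5 arrays separate by genotype (10.88 to 11.04 against 10.56 to 10.68), while Dlx1, Dlx2, Dlx3, Dlx4 and Dlx6 overlap.

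Dlx1 and Dlx2 were not higher in the knockout. Like Dlx4, they were dim: all their levels lay below the array medians of 8.67 to 8.72 over all rows. Whether such levels exceed background was not tested. Dlx1 had levels of 8.001, 8.07 and 8.36 in Atf5-/- arrays, against 8.26, 8.35 and 8.39 in Atf5+/+ arrays. Knockout replicates 1 and 2 lay below all wild-type arrays, and knockout replicate 3 lay among them. The mean was 8.14 ± 0.19 in the knockout and 8.33 ± 0.07 in the wild type (SD, n = 3 each), a log2 difference of -0.19 (SE 0.09, 95% interval -0.40 to 0.02; limma, adjusted p = 0.375). Without knockout replicate 3 the difference was -0.30, still past no threshold (adjusted p = 0.0624), and with any other array left out it was -0.23 to -0.12.

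Dlx2 had levels of 8.12, 8.16 and 8.65 in Atf5-/- arrays, against 8.31, 8.31 and 8.40 in Atf5+/+ arrays. The knockout arrays lay on both sides of the wild type: replicates 1 and 2 below all 3 wild-type arrays and replicate 3 above them. The log2 difference of the means was -0.03 (SE 0.13, 95% interval -0.32 to 0.26; limma, adjusted p = 0.945), and it was -0.20 without knockout replicate 3 and 0.06 without knockout replicate 1.

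Dlx1as, a transcript antisense to Dlx1 that reaches towards Dlx2, was the only noncoding transcript of a Dlx locus with a probe set of its own symbol; Dlx6os1, Dlx6os2 and Dlx4os were not analysed here. Dlx1as had levels of 7.94, 7.92 and 8.02 in Atf5-/- arrays, against 8.10, 8.08 and 8.11 in Atf5+/+ arrays. These too lay below the array medians. All knockout arrays lay below all wild-type arrays, as in 10.3% of all genes, by a log2 difference of -0.14 (SE 0.06) that did not pass (limma, adjusted p = 0.290; 0.223 with the block). Dlx1 and Dlx1as overlap on opposite strands, and how far the probes separate them is not given in the sources used here.

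Dlx3 and Dlx4 were close to equal in both genotypes. Dlx3 had levels of 9.59, 9.50 and 9.52 in Atf5-/- arrays, against 9.55, 9.59 and 9.59 in Atf5+/+ arrays, a log2 difference of -0.04 (SE 0.06, 95% interval -0.17 to 0.09; limma, adjusted p = 0.803). Its arrays were the closest together of the family, with SDs of 0.04 in the knockout and 0.02 in the wild type. Dlx4 had levels of 8.27, 8.25 and 8.50 in Atf5-/- arrays, against 8.29, 8.36 and 8.41 in Atf5+/+ arrays. Here too the highest of the 6 values was that of knockout replicate 3, and the log2 difference was -0.02 (SE 0.08, 95% interval -0.20 to 0.17; limma, adjusted p = 0.959).

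Among the 5 members other than Dlx5, 0 passed the test of the knockout against the wild type by limma, against 3.74% of all genes, and 0 had an unadjusted p under 0.05, against 16.1% of all genes. With the replicate block 0 passed as well, against 6.57% of all genes. Dlx5, for which the family was chosen, was the 1 member whose groups did not overlap, as in 21.1% of all genes in either direction and in 10.8% with the knockout above. Over the 6 members the log2 difference ran from -0.19 to 0.33 with a median of -0.02, 2 above 0 and 4 below, beside a median of 0.01 and 53% above 0 over all genes.

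Over the knockout arrays, replicate 3 was the highest for Dlx1, Dlx2 and Dlx4, the lowest for Dlx5 and Dlx6, and the middle one for Dlx3. Relative to the mean of the other 2 knockout arrays, replicate 3 was higher by 0.51 for Dlx2, by 0.32 for Dlx1 and by 0.24 for Dlx4, while it differed by -0.02 for Dlx3, -0.13 for Dlx5 and -0.13 for Dlx6. Levels of Dlx2 and Dlx4, from different chromosomes, correlated over the 6 arrays at r = 0.95, those of the neighbours Dlx1 and Dlx2 at r = 0.80, and those of Dlx5 and Dlx6 at r = 0.60. Dlx1 ran against both Dlx5 (r = -0.79) and Dlx6 (r = -0.81). These are descriptions over 6 arrays that share their normalization and include the genotype difference. Among the 445 other genes with a mean level within the range of Dlx1, Dlx2 and Dlx4 (8.24 to 8.35), knockout replicate 3 was the highest of the 3 knockout arrays for 53.3%, against 32.6% over all genes, with a median excess of 0.07 over the other 2. Of the 16 lists of other genes described below, 5 had the highest of their 3 knockout means in that array, beside 32.6% of single genes. These were the lists for bone, enamel and dentine, GABA neurons, stratified epithelium and muscle. For GABA neurons the means of knockout replicates 1, 2 and 3 were 8.941, 8.955 and 8.994. The mean over 9 osteoblast and bone genes was 10.76, 10.81 and 11.16 in Atf5-/- arrays and 10.63, 10.68 and 10.93 in Atf5+/+ arrays, with replicate 3 on top in both genotypes. For stratified epithelium it was 8.88, 8.74 and 9.30 in Atf5-/- arrays and 9.56, 10.06 and 8.15 in Atf5+/+ arrays, with replicate 3 lowest in the wild type. The part of signal level and of these tissues in the Dlx1, Dlx2 and Dlx4 values was not tested.

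**Figure D2:**
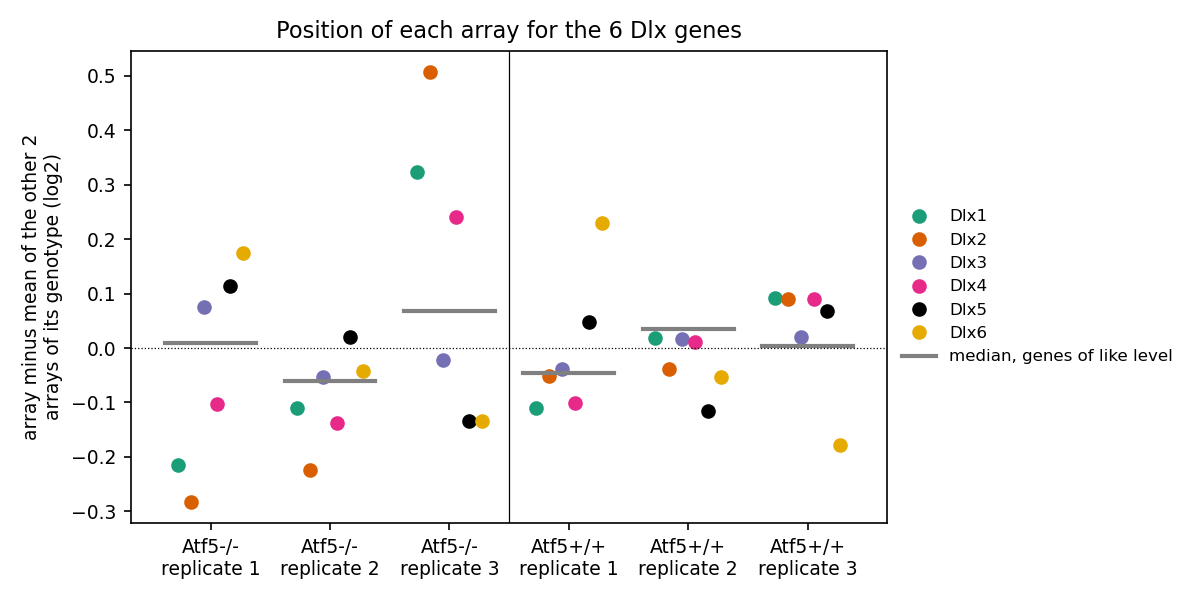
Each array's log2 level minus the mean of the other 2 arrays of its genotype, for the 6 Dlx genes (coloured points), with the median of the same quantity over 445 genes of like level to Dlx1, Dlx2 and Dlx4 (grey bars). In Atf5-/- replicate 3, Dlx1, Dlx2 and Dlx4 stand 0.24 to 0.51 above the other knockout arrays and the grey bar 0.07, while Dlx5 and Dlx6 stand 0.13 below.

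The genes around the 3 pairs were set beside them, taking the 3 nearest measured protein-coding genes on each side. None of these 18 neighbours passed the test by limma, against 3.74% of all genes, and none passed with the replicate block, against 6.57%. An unadjusted p under 0.05 was reached by 1 of the 18, against 16.1% of all genes. It was Pdk1, a pyruvate dehydrogenase kinase gene of the Dlx2 side (limma, log2 difference 0.23, SE 0.09, adjusted p = 0.231). Around Dlx5 and Dlx6, Sem1, a proteasome subunit, differed by 0.07 (SE 0.08) and Sdhaf3, an assembly factor of succinate dehydrogenase, by 0.04 (SE 0.08). Slc25a13, a mitochondrial aspartate-glutamate carrier, differed by 0.21 (SE 0.09; adjusted p = 0.327), Tac1, the substance P precursor gene, by 0.04 (SE 0.09), and Dync1i1, a dynein chain of neurons, by -0.09 (SE 0.06). Asns, asparagine synthetase, which lies on the Dlx5 side and is known as a target of ATF factors under amino acid shortage, had levels of 12.31, 12.32 and 12.12 in Atf5-/- arrays, against 12.19, 12.21 and 12.22 in Atf5+/+ arrays. Its groups overlapped and it differed by 0.04 (SE 0.07; limma, adjusted p = 0.833). Around Dlx1 and Dlx2, Slc25a12, Hat1, Metap1d, Itga6 and Map3k20 differed by -0.11 to 0.09, and around Dlx3 and Dlx4, Samd14, Pdk2, Itga3, Tac4, Kat7 and Fam117a by -0.14 to 0.11.

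**Figure D3:**
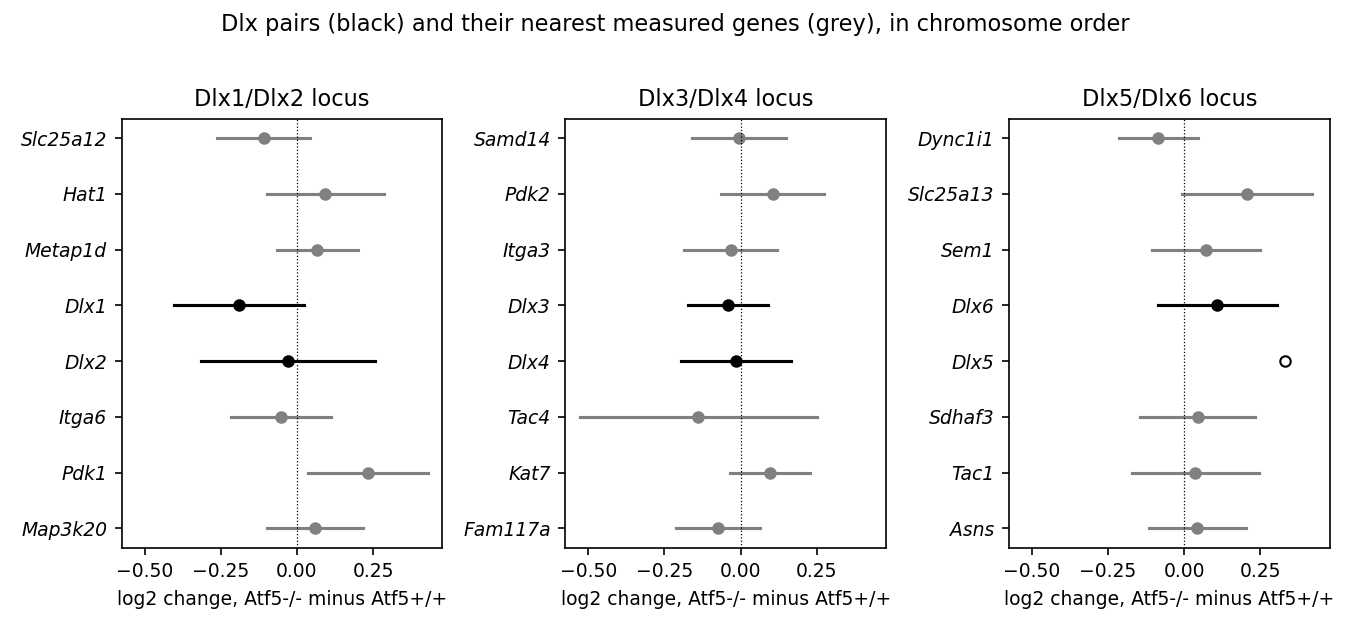
Log2 difference, Atf5-/- minus Atf5+/+, of the Dlx genes (black) and of the 3 nearest measured protein-coding genes on each side (grey), listed in chromosome order from top to bottom, with limma's 95% intervals. Dlx5, drawn as an open point with no interval because it was chosen for this value, stands at 0.33, and the neighbours of its locus stand between -0.09 and 0.21.

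The 8 genes whose levels followed Dlx5 most closely, by Pearson correlation over the 6 arrays and leaving out provisional symbols and receptors, were Tirap (r = 0.999), Rasgrp3 (0.997), Zfp623 (0.995), Stx17 (0.995), Wipf1 (0.993), Armcx2 (0.992), Eif4enif1 (0.991) and Slc7a3 (0.990). These values rest on only 6 arrays and include the genotype difference, and 138 of the 19936 genes reached 0.95 or more. Because these genes were picked for their likeness to Dlx5, itself chosen for its values in the knockout, all 8 lay above the wild type in every knockout array, a direction fixed by the choice and given with no test. For 7 of them the log2 difference was 0.15 to 0.23, against 0.33 for Dlx5. The exception was Slc7a3, a cationic amino acid transporter, with levels of 9.99, 9.96 and 9.69 in Atf5-/- arrays, against 9.13, 9.01 and 9.16 in Atf5+/+ arrays, a log2 difference of 0.78. Stx17 is a syntaxin of autophagosomes and Tirap an adaptor of Toll-like receptors. Of the family, Dlx6 came at place 3750 in this order of 19936 genes, and Dlx1 at place 18495.

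**Figure D4:**
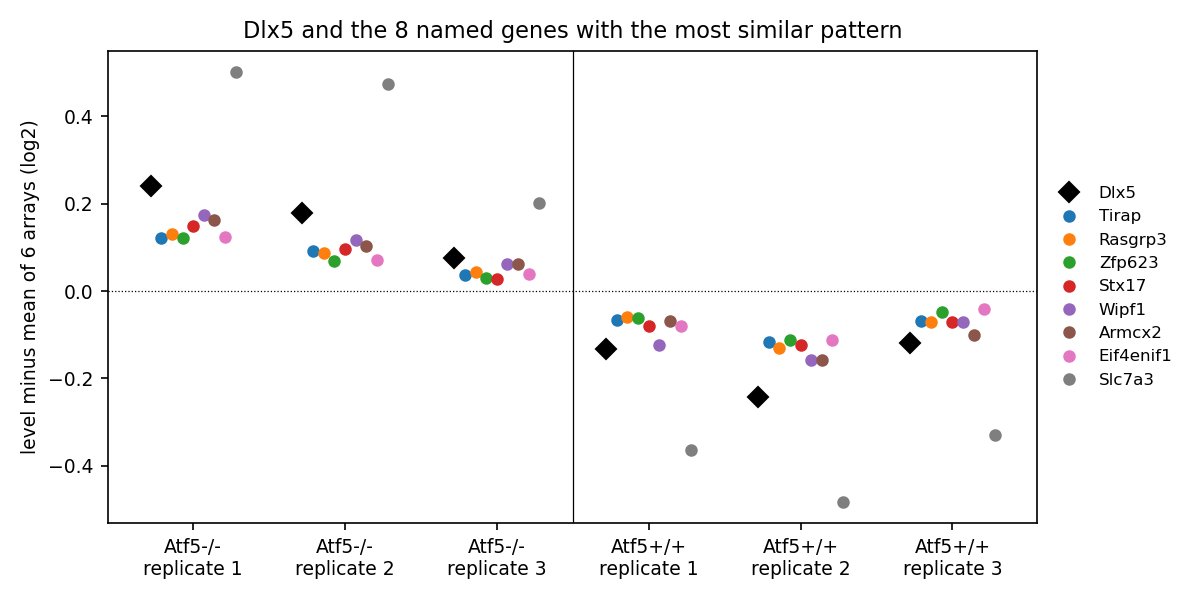
Log2 level of Dlx5 (black diamonds) and of the 8 named genes of highest correlation with it (coloured circles), each minus its own mean over the 6 arrays. All 9 genes are above 0 in the 3 Atf5-/- arrays and below 0 in the 3 Atf5+/+ arrays, as their choice by likeness to Dlx5 fixes, and 7 of the 8 span less than Dlx5.

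Bone morphogenetic proteins are known to induce Dlx genes in the face, and among 22 measured genes of that pathway 1 fell and 21 did not pass (limma; 3.24% of all genes fell). The ligand gene Bmp6 had levels of 9.64, 9.66 and 9.74 in Atf5-/- arrays, against 9.90, 10.13 and 10.05 in Atf5+/+ arrays, a log2 difference of -0.35 (SE 0.07, adjusted p = 0.0363). Its groups did not overlap, but the call held in 1 of 6 fits with an array left out, the one without wild-type replicate 1 (adjusted p from 0.0323 to 0.125). The ligand gene Bmp4 was at 10.20, 10.40 and 10.18 in Atf5-/- arrays and at 9.87, 10.09 and 10.13 in Atf5+/+ arrays, a difference of 0.23 (SE 0.09, adjusted p = 0.254), and Bmp2 differed by 0.10 (SE 0.06). The pathway's median log2 difference was 0.07, with 16 genes above 0 and 6 below.

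Among 25 measured homeobox genes of the face and placodes outside the family, 0 passed by limma (3.74% of all genes did). An unadjusted p under 0.05 was reached by 5 of the 25 (16.1% of all genes), and the median was 0.04. Msx1 and Msx2, whose proteins bind similar DNA to Dlx proteins and can oppose them, differed by 0.03 (SE 0.08) and -0.01 (SE 0.08). The nearest to the threshold was Six4, a homeobox factor of cranial placodes, with levels of 10.33, 10.29 and 10.09 in Atf5-/- arrays, against 9.99, 9.92 and 9.81 in Atf5+/+ arrays. Its log2 difference of 0.33 (SE 0.08) was of the size of that of Dlx5, with adjusted p = 0.0663, and 0.0139 with the replicate block and 0.0282 without knockout replicate 3. Of 10 measured placode and olfactory progenitor regulators, 5 of which are also in the homeobox list, 0 passed by limma and 3 had an unadjusted p under 0.05. With the block 1 gene of each list rose, the same gene Six4 in both (2.11% of all genes rose). Eya1, a cofactor of placode homeobox factors, differed by 0.15 (SE 0.09, adjusted p = 0.480).

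Dlx5 is known from cells of the olfactory lineage, and lists for the stages of that lineage were counted in the same fit. Among 9 genes of globose basal cells and neuronal precursors 0 passed by limma (3.74% of all genes did). An unadjusted p under 0.05 was reached by 3 of the 9 (16.1% of all genes). The proneural genes Neurog1 and Neurod1 differed by 0.08 (SE 0.13) and 0.04 (SE 0.09), and Insm1, a zinc finger factor of dividing precursors, by -0.29 (SE 0.08, adjusted p = 0.102; 0.0466 with the block, in which 4.46% of all genes fell). Of 13 cell division genes 3 rose, Plk1 (0.57), Bub1b (0.30) and Mcm4 (0.29), with a median of 0.33 (0.502% of all genes rose), and 11 rose with the block (2.11%). Leaving out knockout replicate 2 gave 0, leaving out replicate 1 of either genotype 1, and leaving out replicate 2 of the wild type 5. The mean level over these 13 genes was 10.61, 10.78 and 10.68 in Atf5-/- arrays and 10.25, 10.46 and 10.32 in Atf5+/+ arrays. Knockout replicate 1, the highest array for Dlx5, was the lowest knockout array for division, and the part of dividing cells in the Dlx5 value was not tested. Immature olfactory neuron genes fell for 3 of 10, Dcx, Gng8 and Gap43, with a median of -0.23, where 3.24% of all genes fell. Without wild-type replicate 1 or 2 the count was 1. With the block 4 fell (4.46% of all genes), the added gene being Stmn2 (-0.26, adjusted p = 0.0480). Mature neuron genes fell for 11 of 12, against 3.24% of all genes, led by S100a5 (-2.74), Stoml3 (-2.57) and Gnal (-2.36), with a median of -1.61.

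Of the tissues outside the olfactory lineage where Dlx genes are known, bone, teeth and forebrain GABA neurons were covered by 3 lists. The stratified epithelium list, for skin, is given below with the remaining lists. Of 9 measured bone genes 0 passed by limma (3.74% of all genes did) and 0 had an unadjusted p under 0.05 (16.1%). All 9 nevertheless lay above 0, with a median of 0.17. Sp7, the osteoblast factor osterix, differed by 0.04 (SE 0.15), Alpl, alkaline phosphatase, by 0.31 (SE 0.22) and Dmp1, a matrix protein gene of osteocytes, by 0.28 (SE 0.14, adjusted p = 0.388). Of 8 enamel and dentine genes 2 fell, Enam (-2.47, SE 0.51) and Amelx (-1.98, SE 0.46), against 3.24% of all genes, and all 8 lay below 0. The mean level of the 8 was 7.88 to 8.46 in Atf5-/- arrays and 8.76 to 9.88 in Atf5+/+ arrays. The enamel count was 4 without wild-type replicate 3, 1 without knockout replicate 3 and 0 without any other array. It was 4 with the block, in which 4.46% of all genes fell. It was 1 after quantile normalization, with median centring, with the 30th percentile filter and with the mean of probe sets, and 0 under a trended and robust prior. Dlx3, the member known from teeth, was 9.50 to 9.59 in Atf5-/- arrays against 9.55 to 9.59 in Atf5+/+ arrays, and the part of tooth tissue in any Dlx value was not tested. Of 10 genes of forebrain GABA neurons, 1 fell, against 3.24% of all genes. It was Calb2, the calretinin gene, which olfactory neurons also express (limma, -0.76, SE 0.12, adjusted p = 0.0105). Gad2, a GABA-synthesising enzyme gene, differed by 0.35 (SE 0.09, adjusted p = 0.0801; 0.0370 with the block and 0.0411 without knockout replicate 3) and Gad1, its partner enzyme, by -0.10 (SE 0.07). Of the remaining lists, 0 of 14 cartilage genes, 0 of 8 sustentacular, 0 of 7 horizontal basal, 0 of 7 stratified epithelium, 0 of 8 ciliated and 0 of 10 muscle genes passed by limma. The muscle genes had a median of 0.42 with all 10 above 0, and their mean level was 9.71, 9.83 and 10.07 in Atf5-/- arrays and 8.77, 9.81 and 9.68 in Atf5+/+ arrays, with wild-type replicate 1 apart from the rest. At an unadjusted p under 0.05 the counts of these 6 lists were 0, 2, 0, 0, 1 and 2 in the order given (16.1% of all genes). Without wild-type replicate 3, 3 stratified epithelium genes and 1 horizontal basal gene fell. Over the 6 fits with 1 array left out, 0 to 1 sustentacular gene fell and 0 to 1 muscle gene rose. Of all 19937 genes, 383 to 584 fell and 27 to 127 rose in those fits. With the block 1 cartilage and 1 sustentacular gene fell (4.46% of all genes) and 1 ciliated and 2 muscle genes rose (2.11%).

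**Figure D5:**
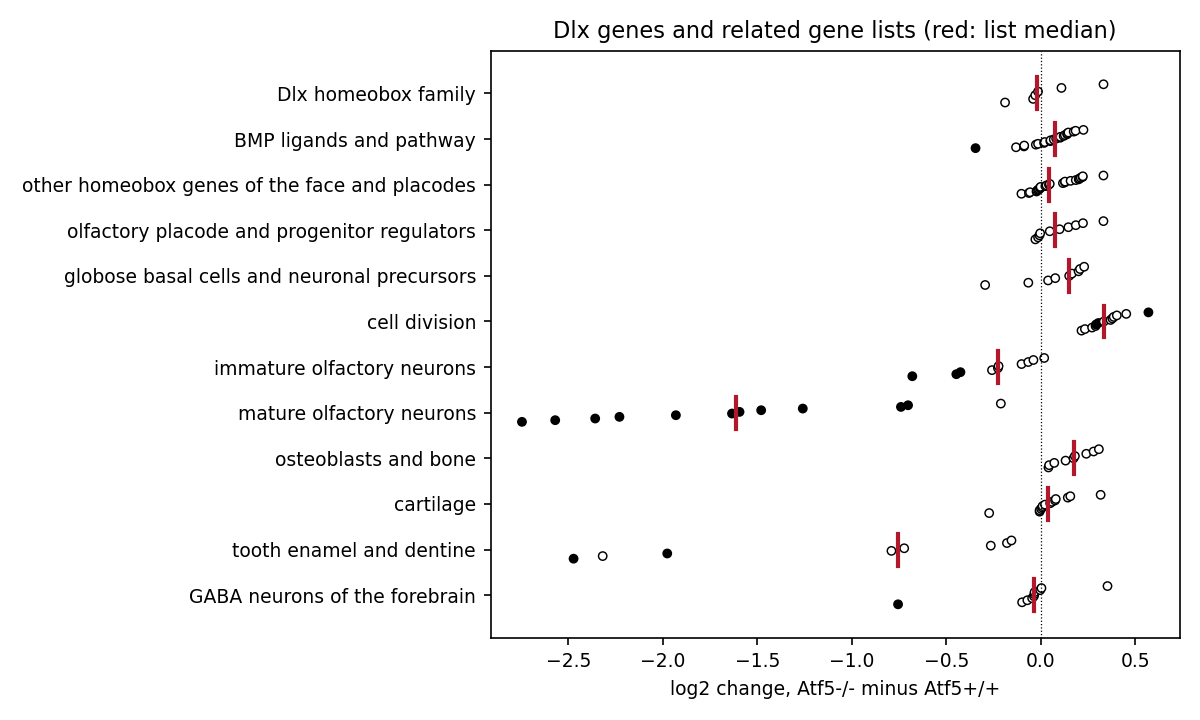
Log2 difference, Atf5-/- minus Atf5+/+, of every measured gene of the Dlx family and of 11 related lists (1 circle a gene, spread vertically by rank); filled circles passed limma's test at an adjusted p under 0.05, the Dlx circles have no fill, and red bars are list medians. The Dlx median is at -0.02 with Dlx5 alone at 0.33, the cell division median at 0.33 and the mature neuron median at -1.61.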

How the data were processed

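The log2 values the authors deposited ran from 4.50 to 14.7 and were used as deposited; the base of the logarithm was read from that range. The tools named are affy, limma and RMA, with no version, per the submitters' processing notes. Per the labels' protocols, Trizol RNA was converted with the Ambion WT Expression Kit and labelled with biotin in 1 colour. Quantile normalization, part of RMA as generally defined, hides changes shared by most transcripts, and dim probe sets may be compressed.

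Of 34760 rows, 21640 had 1 gene symbol, 1321 several and 11799 none in GEO's platform annotation; 21553 of the first matched the GRCm38.p6 gene table by gene number, and 0 symbols changed. The probe set with the highest mean was taken for 954 genes with several. Groups came from sample titles, which call the samples biological replicates.

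All 19937 genes were fitted by limma 3.58.1 in R 4.3.3 (lmFit, eBayes, 2-sided, Benjamini-Hochberg, threshold 0.05). The procedure was tested on simulated data, in which the changes were larger than any measured for a Dlx gene. Members, the 17 lists beside the family and the naming rule (first 2 members, up to 4 past the threshold or else the lowest p; neighbours; closest patterns) were chosen with earlier results of these data known; 6 lists are given by counts only. Of 194 listed names, 177 were measured alone; the rest were not analysed here. The window of like-level genes was chosen after seeing the data. Deviations of same-numbered arrays from their group means correlated at 0.295, 0.122 and 0.234, all over 0.1. The highest correlations with an array of another number were -0.137, 0.0289 and 0.0179. Deviations sum to 0 for each gene within a genotype, so the latter correlations partly follow from the former and are not independent of them. The numbers were taken to pair the samples, from the data and not the labels. The block was fitted to the same values, so its calls are not independent of that choice. The block is given where it changed a call. The number of arrays limits precision.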

Additional observations from a re-analysis of the deposited data

How the results depend on the processing

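In the 12 alternatives, 0 of the 5 Dlx genes other than Dlx5 passed. The log2 difference of Dlx5 was 0.29 to 0.38 with 1 array left out, a description only, since these arrays were used to choose it. With the replicate number as a block, 1310 genes passed in all, 421 of them higher; genes of the related lists past the threshold rose to 40, of which 16 were higher, and the block changed no Dlx call. Keeping genes above the 30th percentile gave 432 genes (358 lower) of 13956 tested, and a trended and robust prior gave 5 higher genes of the lists. With 1 array left out, which also reduces the samples, counts ran from 410 (without wild-type replicate 1) to 649 in all, 27 to 127 higher and 383 to 584 lower, and over the lists from 14 to 25, 0 to 6 higher and 12 to 23 lower. Leaving out knockout replicates 1 and 2 in turn gave 52 and 31 higher genes, and leaving out wild-type replicates 1 and 3 in turn gave 27 and 53. Signs turned, with no call on either side, for Dlx4 (0.0076) and Msx2 (0.010) after quantile normalization. With 1 array left out they turned for Dlx2 (-0.199 to 0.0643), Dlx4 (-0.0953 to 0.0309), Sdhaf3 (-0.0198 to 0.107), Msx1 (-0.0407 to 0.0714), Msx2 (-0.0904 to 0.0661), Neurog1 (-0.0506 to 0.239), Neurod1 (-0.0333 to 0.139), Samd14 (-0.0561 to 0.0491), Tac4 (-0.345 to 0.059), Sp7 (-0.137 to 0.163) and Tac1 (-0.0706 to 0.116). Among other named genes, Amelx did not pass after quantile normalization or median centring, nor with the 30th percentile filter or the mean of probe sets. Amelx did not pass with the trended prior either (limma, adjusted p from 0.0502 to 0.271 over these settings). Enam failed under the trended prior (0.230) and Mcm4 after quantile normalization (0.0704). Of the 6 fits with 1 array left out, the call of Mcm4 held in 0, that of Bub1b in 1 and that of Plk1 in 5. Their highest adjusted p was 0.170, 0.126 and 0.0851. Calls of Enam, Amelx, Gap43 and Gng8 held in 1, 2, 3 and 4 of these fits. The cause of these changes was not tested. No other scaling moved the median of all genes by more than 0.1.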
